A study of Mus musculus with 18 samples.

Results

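Sorted mouse dermal cells were compared for 8 genes of the sine oculis homeobox, Eya and Dach families: Six2, Six4, Six5, Eya1, Eya2, Eya3, Eya4 and Dach1. They were taken by gene symbol, as the probe sets annotated to that 1 gene, and are 8 of 18193 genes measured. For a gene with several probe sets, the one with the highest mean over all arrays gave the value, and the others served as a check.

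The samples were 18 Affymetrix mouse whole-genome arrays in 6 groups of 3. The EPF group held green cells, and the ENF group red cells, from the dorsal dermis of En1Cre; R26mTmG mice, both labelled P56. The Oral group came from oral mucosa and the Cranial group from cranial dermis of Wnt1Cre; R26mTmG mice, while the Ventral and Dorsal groups were each dermis of that name from the En1Cre; R26mTmG line. All 4 site groups were green cells labelled P30. The protocol text instead puts the back skin of EPF and ENF at 30 days, and the conflict could not be settled. R26mTmG switches a cell and its descendants from red to green fluorescence once Cre has acted, so green marks a history of En1 or Wnt1 driver activity and not present expression of the driver. Wnt1Cre is widely used to mark neural crest descendants, and En1Cre to mark descendants of Engrailed-1 expressing cells. Below, head means the Oral and Cranial groups and trunk the Ventral and Dorsal groups. EPF and ENF, also from dorsal dermis, are named apart. Head and trunk groups differ in mouse line as well as site. A site difference between them therefore cannot be told apart from one of line or traced lineage. No sample was treated, and the sort gate took cells without DAPI, EpCAM, CD45, CD31, Tie2 and a marker the labels spell Tie119. The labels do not say whether the 3 samples of a group came from separate animals, so p-values measure the spread between these samples, which may be technical. The number of arrays limits the precision of every difference below.

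Sine oculis homeobox proteins, here Six2, Six4 and Six5, are transcription factors that bind DNA and recruit Eya proteins, which do not bind DNA themselves but act as coactivators and carry a phosphatase activity. Dach proteins are nuclear cofactors related to Ski that often act as corepressors of the same target genes. The network is best known from the eye, ear, kidney, skeletal muscle and the craniofacial mesenchyme, where Pax and Hox factors act upstream of it or beside it.

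The 8 fibroblast marker genes measured were above the lower quartile of all genes on all 18 arrays, with a summed level on the log2 scale of 15.52 to 15.87 in Oral, 15.86 to 16.28 in Cranial, 15.69 to 16.06 in Ventral, 16.01 to 16.45 in Dorsal, 16.89 to 16.91 in EPF and 16.74 to 16.81 in ENF. The 8 skeletal muscle lineage markers, relevant because that lineage also uses Eya genes and their homeobox partners, summed to 8.36 to 8.60 in Oral, 8.12 to 8.26 in Cranial, 8.44 to 8.95 in Ventral, 8.21 to 8.85 in Dorsal, 8.53 to 8.95 in EPF and 9.43 to 10.56 in ENF. The 7 keratinocyte markers reached 7.37 to 13.05 in EPF and 11.76 to 14.50 in ENF, against 7.40 to 8.18 over the site arrays. The 5 leukocyte markers summed to 8.17 on Dorsal array 1, against 11.83 and 12.03 on the other Dorsal arrays. Among these markers Laptm5 ran from 7.31 to 11.95 over the Dorsal arrays and Csf1r from 6.13 to 8.32. Ptprc, the gene of the gated CD45, ran only from 3.87 to 4.08. Without Dorsal array 1 limma called 5 of the 8 genes in Oral minus Dorsal and 4 in Cranial minus Dorsal, against 5 and 5 with it. Of all genes, 5623 were called in Oral minus Dorsal without this array, against 3065 with it. In Cranial minus Dorsal 6148 were called without it, against 3393. The counts over all genes thus rose without Dorsal array 1, while those of the 8 genes did not. Over all genes, arrays correlated at 0.946 to 0.998 within the site groups and at 0.962 to 0.988 within EPF and ENF, but at 0.872 to 0.926 across these sets. A difference between the EPF or ENF arrays and the site arrays cannot be told apart from one between sets of arrays.

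Values are log2 expression. A difference was called at an adjusted p under 0.05 in limma, with Benjamini-Hochberg adjustment over all 18193 genes. The lower quartile of all genes lay between 4.44 and 4.63 on the 18 arrays, and a value at or below it is described as near background. In sorted bulk RNA, fewer cells expressing a gene and less RNA per cell cannot be told apart. An F test over the 4 site groups called 5 of the 8 genes, against 21.1% of all genes. They were Six2 (adjusted p = 2.23e-06), Eya1 (4.46e-06), Six5 (0.00235), Six4 (0.00329) and Eya4 (0.00588). Eya2, Eya3 and Dach1 were not called (0.108, 0.756 and 0.799).

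**Figure D1:**
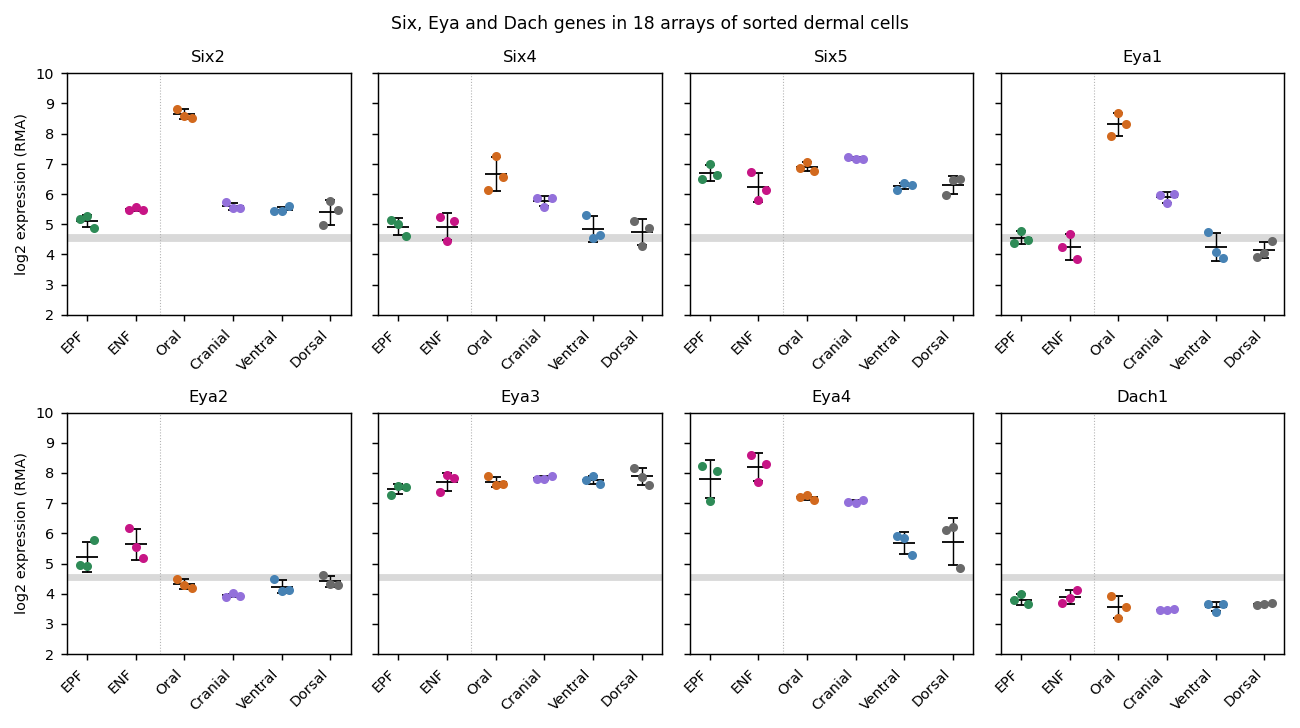
Log2 expression of each of the 8 genes on every array, by group, with the group mean and SD (n = 3) in black and the range of the lower quartiles of all genes in grey. Six2 and Eya1 stand highest on the 3 Oral arrays, Eya4 is higher on the Oral and Cranial arrays than on the Ventral and Dorsal ones, and Dach1 lies below the grey band everywhere.

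Six2, a homeobox factor of craniofacial and kidney progenitor mesenchyme, was high in the oral group and in no other. Its promoter is shown because Six2 had the largest Oral differences of the 3 homeobox members. The 250 bases before its annotated start are at chr17:85688255-85688504 on the minus strand of GRCm38.p6, from RefSeq, with matches to TGACAG or its reverse complement in capitals, the core letters bound by Meis-type homeobox factors.
Six2: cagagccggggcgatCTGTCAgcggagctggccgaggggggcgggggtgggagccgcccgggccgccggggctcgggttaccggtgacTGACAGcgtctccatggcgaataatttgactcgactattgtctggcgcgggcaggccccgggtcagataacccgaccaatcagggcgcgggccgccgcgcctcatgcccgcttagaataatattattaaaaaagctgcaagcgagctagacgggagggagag
The letters TGACAG occur on either strand in 19.2% of 32851 promoter windows of 300 bases (250 before and 50 after the start), so this match is a description of common letters. The MEF3 site TCAGGTTTC, bound by these homeobox proteins, and its core TCAGGTT, which lies within it, were not found in the Six2 window; they occur in 0.429% and 4.07% of windows.

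Six2 read 8.83, 8.59 and 8.52 on the Oral arrays, against 5.73, 5.53 and 5.55 on the Cranial, 5.44, 5.42 and 5.59 on the Ventral and 4.96, 5.78 and 5.46 on the Dorsal arrays. All 3 Oral arrays lay above every other site array, while the Cranial, Ventral and Dorsal arrays overlapped. The log2 difference was 3.04 ± 0.18 for Oral minus Cranial (SE, adjusted p = 1.28e-05), 3.16 ± 0.18 for Oral minus Ventral (2.10e-06) and 3.25 ± 0.18 for Oral minus Dorsal (1.53e-06), which are 8.25-, 8.95- and 9.49-fold. These calls held in each of the 15 settings tried. Cranial minus Dorsal was 0.20 (95% interval -0.20 to 0.60) and Cranial minus Ventral 0.12 (-0.29 to 0.52), neither of which was called.

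Six4, a homeobox factor of muscle and sensory development, also had its highest values in Oral, with Cranial between Oral and the trunk in the probe set used. It read 6.13, 7.25 and 6.58 on the Oral arrays, 5.86, 5.57 and 5.87 on the Cranial, 5.32, 4.54 and 4.66 on the Ventral and 5.11, 4.27 and 4.88 on the Dorsal arrays. The 3 Oral arrays lay above all others, and the Cranial arrays above all Ventral and Dorsal ones. Ventral array 2 and Dorsal array 2 were near background, so a fold against the trunk is uncertain. Oral minus Dorsal was 1.90 ± 0.31 (3.73-fold, adjusted p = 0.00198) and Oral minus Ventral 1.82 ± 0.31 (3.52-fold, adjusted p = 0.00285). Oral minus Cranial, 0.89 ± 0.31, was not called (adjusted p = 0.343), and neither was it by 1439753_x_at (0.97, adjusted p = 0.13) or 1427701_a_at (0.22, 0.928), while 1425767_a_at called it at 1.16 ± 0.16 (0.00607). Cranial minus Dorsal was 1.01 ± 0.31 (adjusted p = 0.0429), a call that held in 8 of 15 settings, and Cranial minus Ventral 0.93 ± 0.31 (0.0597), not called here but called in 6 of 15. The same Cranial differences were called by 1439753_x_at, at 1.22 ± 0.24 (limma adjusted p = 0.006) and 1.04 ± 0.24 (0.01375). They were not called by 1425767_a_at, at 0.50 (limma adjusted p = 0.0558) and 0.22 (0.37), whose Cranial and Ventral arrays overlapped. Nor were they by 1427701_a_at, at 0.06 and -0.04.

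The Six4 promoter holds the only MEF3 site found among the 8 windows of the 6 genes that the promoter table covers. It lies at position -99 from the annotated start, on the strand opposite to the gene, in 1 of the 2 annotated Six4 windows. Shown at chr12:73113326-73113354 on the minus strand of GRCm38.p6, with the match in capitals (the reverse complement of TCAGGTTTC):
Six4: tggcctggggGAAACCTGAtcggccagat

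Six5, a homeobox factor whose human gene lies beside the myotonic dystrophy repeat, was higher in Oral and Cranial than in Ventral and Dorsal. Oral minus Cranial was not called. Its values were 6.87, 7.06 and 6.78 in Oral, 7.24, 7.15 and 7.17 in Cranial, 6.15, 6.36 and 6.31 in Ventral and 5.96, 6.46 and 6.50 in Dorsal. All Oral and Cranial values lay above all Ventral and Dorsal values, and the Cranial arrays above the Oral ones. EPF, also from dorsal dermis, read 6.48 to 7.00 and overlapped with Oral, while ENF read 5.79 to 6.72. Cranial minus Dorsal was 0.88 ± 0.15 (adjusted p = 0.0026) and Cranial minus Ventral 0.92 ± 0.15 (0.00207), both called in 15 of 15 settings. Oral minus Dorsal (0.60 ± 0.15, adjusted p = 0.0179) and Oral minus Ventral (0.63 ± 0.15, 0.0149) were called in 11 of 15; both were lost after quantile normalization (0.34 and 0.43) and without Oral array 2 (0.52 and 0.55). Both were lost too with all 18 arrays in the fit. Oral minus Dorsal was also lost with only the 2 groups in the fit, and Oral minus Ventral without Ventral array 1 (0.57).

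Eya1, the coactivator mutated in branchio-oto-renal syndrome in humans, had the widest range of the 8 genes over the sites. It read 7.91, 8.68 and 8.33 on the Oral arrays, 5.97, 5.69 and 6.01 on the Cranial, 4.75, 4.08 and 3.87 on the Ventral and 3.93, 4.06 and 4.44 on the Dorsal arrays. No Oral array overlapped a Cranial one and no Cranial array a trunk one, while 5 of the 6 trunk values were near background, so a fold against the trunk is uncertain. The differences were 2.42 ± 0.25 for Oral minus Cranial (5.34-fold, adjusted p = 0.000568), 4.07 ± 0.25 for Oral minus Ventral (16.8-fold, adjusted p = 3.24e-06) and 4.16 ± 0.25 for Oral minus Dorsal (17.9-fold, adjusted p = 2.82e-06). Cranial minus Ventral was 1.65 ± 0.25 (3.15-fold, adjusted p = 0.00151) and Cranial minus Dorsal 1.75 ± 0.25 (3.35-fold, adjusted p = 0.00117). All 5 calls held in 15 of 15 settings. The 2 other Eya1 probe sets read between 3.58 and 4.28 on every array, near background, and of their site differences limma called only Oral minus Ventral for 1443117_at, at 0.40 ± 0.12 (adjusted p = 0.0421).

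Eya4, a related coactivator known from deafness and heart muscle disease in humans, did not differ detectably between Oral and Cranial and was lower in Ventral and Dorsal. It read 7.22, 7.27 and 7.09 in Oral, 7.04, 7.02 and 7.10 in Cranial, 5.91, 5.85 and 5.27 in Ventral and 6.13, 6.22 and 4.84 in Dorsal. Every Oral and Cranial array lay above every Ventral and Dorsal one, and Dorsal array 3 lay apart from the other Dorsal arrays. EPF and ENF, also from dorsal dermis, had means of 7.79 and 8.19, above the Oral 7.19 and Cranial 7.05. That difference cannot be told apart from one between sets of arrays. Oral minus Dorsal was 1.46 ± 0.31 (2.76-fold, adjusted p = 0.00879), Oral minus Ventral 1.51 ± 0.31 (2.85-fold, 0.00824), Cranial minus Dorsal 1.33 ± 0.31 (2.51-fold, 0.0146) and Cranial minus Ventral 1.38 ± 0.31 (2.59-fold, 0.0123). Oral minus Cranial was 0.14, with a 95% interval of -0.55 to 0.82. The second probe set, 1456665_at, called Oral minus Dorsal (0.75 ± 0.20), Oral minus Ventral (0.91 ± 0.20) and Cranial minus Ventral (0.79 ± 0.20) in the same direction, and did not call Cranial minus Dorsal (0.63 ± 0.20, adjusted p = 0.0506). Over 15 settings the calls of the probe set used held in 14 for Oral minus Dorsal, 15 for Oral minus Ventral, 12 for Cranial minus Dorsal and 14 for Cranial minus Ventral. With only the 2 groups in the fit Oral minus Dorsal (adjusted p = 0.075) and Cranial minus Dorsal (0.0889) were lost. The Cranial minus Dorsal call was also lost without Cranial array 1 (adjusted p = 0.0515) and without Cranial array 3 (0.0525), and Cranial minus Ventral without Ventral array 3 (0.0501).

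Eya3, a widely expressed coactivator and phosphatase, was called in no comparison with the probe set used. Its values ran from 7.60 to 7.90 in Oral, 7.79 to 7.91 in Cranial, 7.63 to 7.89 in Ventral and 7.61 to 8.16 in Dorsal, and Dorsal overlapped with all 3 other sites. Every pairwise site difference lay within 0.18 of 0, with 95% intervals between -0.50 and 0.39. Among its other probe sets, limma called 1425989_a_at lower in Cranial than Dorsal, by -0.38 ± 0.09 (adjusted p = 0.0192).

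Eya2, a coactivator of the myogenic network, was near background on all site arrays but Dorsal array 1, reading 4.18 to 4.49 in Oral, 3.89 to 4.01 in Cranial, 4.10 to 4.48 in Ventral and 4.29 to 4.61 in Dorsal. Cranial lay below Dorsal by -0.46 ± 0.14 (adjusted p = 0.0407), a difference between near-background groups that was called in 6 of 14 settings. Dach1, the corepressor of the set, read 3.18 to 4.14 over all 18 arrays, below the lower quartile of all genes on each, and was called in no comparison; its 2 other probe sets were at 2.72 to 3.68.

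**Figure D2:**
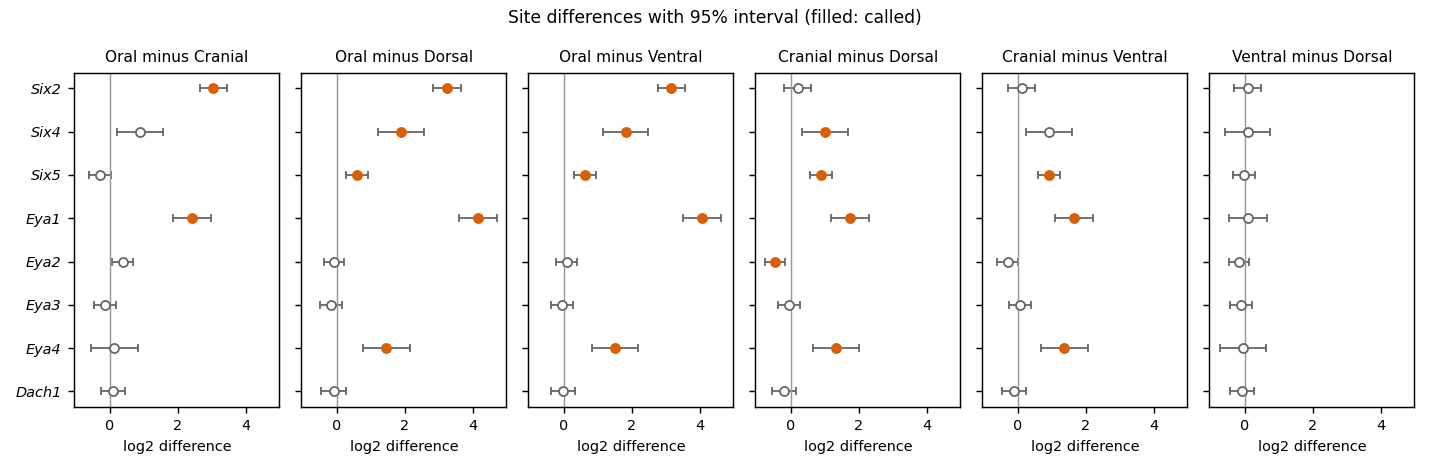
Log2 differences between site groups for the 8 genes, with 95% intervals, in the 6 pairs of sites; filled points passed the adjusted p threshold. Six2 is called only in the 3 Oral pairs, Eya1 in all 5 pairs with a head group, and nothing in Ventral minus Dorsal.

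By pair, limma called 2 of the 8 genes in Oral minus Cranial, both higher in Oral, where it called 1.14% of all genes and 0.407% as higher. The median of the 8 differences was 0.26, against 0.04 over all genes. In Oral minus Dorsal 5 were called, all higher (16.8% of all genes, 10.5% as higher, median 1.03 against -0.02), and in Oral minus Ventral 5, all higher (14.6%, 10.3% as higher, median 1.07 against -0.02). In Cranial minus Dorsal 4 were higher and 1, Eya2, lower (18.7% of all genes, 11.2% as higher and 7.45% as lower, median 0.54 against -0.06), and in Cranial minus Ventral 3 were higher (17.9%, 11.7% as higher, median 0.52 against -0.06). The pairs that share a group are not independent. After quantile normalization the Oral minus Dorsal split became 4 higher and 1 lower, the lower gene being Eya3 at -0.36. Of all genes, 3539 were then called in Oral minus Dorsal, against 3065 before it.

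Ventral minus Dorsal called 0 of the 8 genes, against 0.0275% of all genes, and 0 of the 8 had an unadjusted p under 0.05, against 8.55% of all genes. The 8 differences ran from -0.17 for Eya2 to 0.09 for Six2 and Eya1, and the widest 95% interval, for Eya4, was -0.73 to 0.63. The arrays of the 2 groups overlapped for all 8 genes, while they did not for 10.1% of all genes. At 3 arrays a group these intervals bound a difference and do not show that the levels are equal.

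Within back dermis, EPF against ENF called 0 of 8 by limma, against 0.308% of all genes, with 1 at an unadjusted p under 0.05, against 10.8% of all genes. That gene was Six2, at 5.16, 5.27 and 4.88 in EPF and 5.46, 5.56 and 5.47 in ENF, groups that did not overlap, as for 17.0% of all genes (difference -0.39, adjusted p = 0.434). Eya4 read 8.24, 7.07 and 8.07 in EPF and 8.61, 7.69 and 8.28 in ENF, with overlapping arrays (-0.40, 95% interval -1.22 to 0.42). Eya2 read 4.94, 4.92 and 5.77 in EPF and 6.19, 5.55 and 5.18 in ENF, and Eya1 read 4.37, 4.79 and 4.49 in EPF and 4.24, 4.69 and 3.84 in ENF, again overlapping. Six5 read 6.48, 7.00 and 6.63 in EPF and 6.72, 5.79 and 6.14 in ENF (0.49, 95% interval -0.12 to 1.10), and Six4 read 5.15, 4.99 and 4.62 in EPF and 5.25, 4.43 and 5.10 in ENF. Both genes overlapped between the groups, and Eya3 did too, at 7.27 to 7.58 in EPF and 7.37 to 7.93 in ENF. The summed muscle markers were higher on every ENF array than on every EPF array, while the keratinocyte sums overlapped, as given above. Pericyte and smooth muscle sums were higher in EPF, at 13.185 to 13.55 against 11.305 to 11.618 in ENF. Limma called 3 of those 5 markers higher. Also higher on every EPF array were the leukocyte sums (10.11 to 11.16 against 8.99 to 9.93) and the Schwann and melanocyte sums (8.52 to 10.05 against 7.50 to 7.98). So were the dermal papilla sums (8.02 to 9.21 against 7.24 to 7.79). The part of any of these signals in the values was not tested.

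EPF minus Dorsal, both green cells of En1Cre dorsal dermis by their labels, called 1 of 8 genes, higher in EPF, against 16.8% of all genes and 10.9% as higher. Eya4 was higher in EPF by 2.07 ± 0.46 (4.19-fold, adjusted p = 0.0269), with every EPF array (8.24, 7.07 and 8.07) above every Dorsal one (6.13, 6.22 and 4.84). The call was lost without EPF array 1 (1.84, adjusted p = 0.101) and without EPF array 3 (1.93, 0.109), and with the replicate number as a block (2.07, 0.0567), so that it held in 11 of 14 settings, and 1456665_at did not make it (1.35 ± 0.37, 0.0575). Eya2 was 0.80 higher, which was not called (adjusted p = 0.0908). For Eya3 the probe sets differed in size and call. The one used gave -0.42, not called (limma adjusted p = 0.207), and 1420933_a_at gave -1.43 ± 0.22, called lower (0.00786). The others, 1425989_a_at at 0.14 and 1458961_at at -0.04, were not called. Age label and array set differ between these groups. The 5 endothelial markers summed to 9.81 to 11.46 in EPF against 7.68 to 7.85 in Dorsal, with Tek, the gene of the gated Tie2, at 10.20 ± 0.71 against 3.97 ± 0.01 and Pecam1 at 3.90 ± 0.07 against 3.92 ± 0.21 (SD, n = 3 each). The summed Schwann and melanocyte markers were also higher, at 8.52 to 10.05 in EPF against 6.78 to 7.67 in Dorsal, as were the dermal papilla markers, at 8.02 to 9.21 against 7.52 to 7.78. The keratinocyte sums, at 7.37 to 13.05 in EPF against 7.49 to 7.94 in Dorsal, and the pericyte and smooth muscle sums, at 13.18 to 13.55 against 13.06 to 13.84, overlapped. The mean log2 level of the 5 pericyte and smooth muscle markers did not, at 9.28 to 9.44 in EPF against 7.37 to 8.08 in Dorsal. Limma called 2 of them higher in EPF and 1 lower. Rgs5 averaged 11.83 in EPF against 5.52 in Dorsal, and Acta2 12.60 against 13.41. The part of these signals in the Eya4 difference was not tested.

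**Figure D3:**
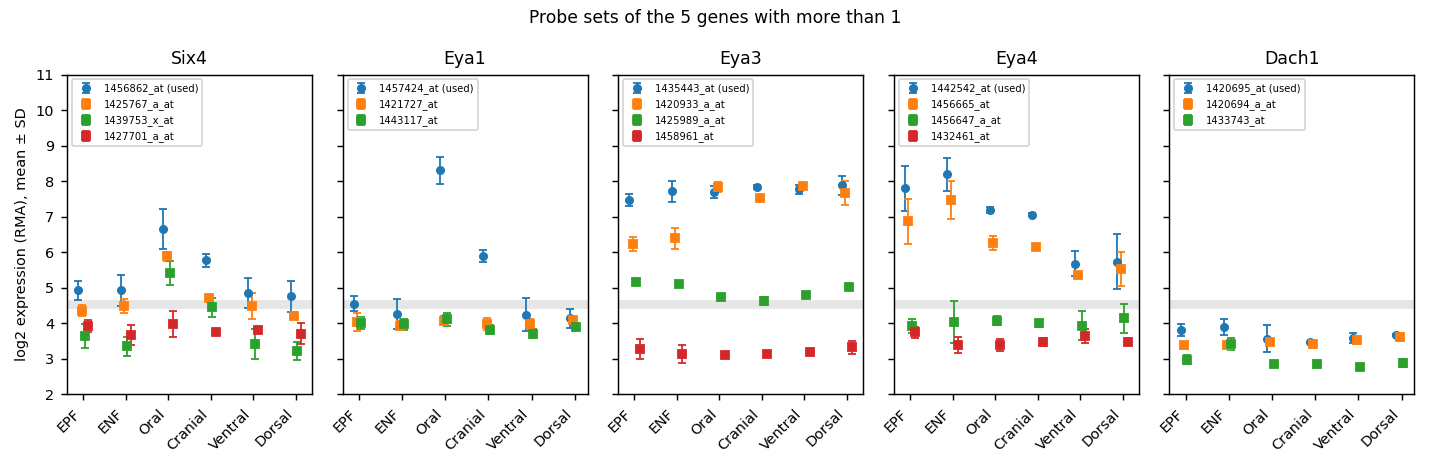
Mean log2 expression of every probe set of the 5 genes that have more than 1, by group, with SD (n = 3); the probe set used is the blue circle and the grey band is the range of lower quartiles. Across the sites, 1425767_a_at and 1439753_x_at of Six4 and 1456665_at of Eya4 run in the direction of the probe set used, the Eya1 alternates sit near background throughout, and 1420933_a_at of Eya3 is lower in EPF and ENF than at the sites.

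Of the 4 other family genes listed beside the 8, 3 were measured. Dach2, the second Dach corepressor, was highest in Oral and read 7.30, 7.52 and 7.16 in Oral, 5.87, 5.73 and 6.05 in Cranial, 4.84, 4.74 and 4.91 in Ventral and 5.19, 5.10 and 5.16 in Dorsal. All 3 Oral arrays lay above the Cranial ones, and these above the trunk. Dach2 was called in all 5 pairs with a head group, at 1.44 ± 0.12 for Oral minus Cranial (adjusted p = 0.000105), 2.17 ± 0.12 for Oral minus Dorsal, 2.50 ± 0.12 for Oral minus Ventral, 0.73 ± 0.12 for Cranial minus Dorsal and 1.05 ± 0.12 for Cranial minus Ventral. In EPF it read 4.38 to 4.72 and in ENF 4.58 to 4.82. Its second probe set, 1458012_at, called Oral minus Dorsal at 1.12 ± 0.22 and Oral minus Ventral at 1.36 ± 0.22, and did not call Oral minus Cranial (0.87, adjusted p = 0.13), Cranial minus Dorsal (0.25, 0.46) or Cranial minus Ventral (0.49, 0.141). Six3, which neighbours Six2 on chromosome 17 with no protein-coding gene listed between them, ran from 5.28 to 6.03 over all arrays and was called in no comparison with the probe set used; neither was Six6. Another Six3 probe set, 1426638_at, was called lower in Cranial than Dorsal, by -0.62 ± 0.17 (adjusted p = 0.0253).

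Of the factors that act upstream of the network or beside it, Pax3 and Meox2 were called in all 5 pairs with a head group. Of 17 measured, 2 were higher and 2 lower in Oral against Cranial, where 1.14% of all genes were called, with a median difference of 0.07 against 0.04 over all genes. Pax3, a paired-box factor of neural crest and muscle precursors, read 9.03, 8.96 and 8.87 in Oral and 7.08, 7.03 and 7.00 in Cranial, a difference of 1.92 ± 0.12 (adjusted p = 1.28e-05). Meox2, a homeobox factor of somite and limb muscle, was 1.56 ± 0.30 higher in Oral (0.035). Hoxa2, which patterns second-arch neural crest, was lower in Oral by -1.84 ± 0.15, at 3.35, 2.98 and 3.22 in Oral and 5.06, 4.82 and 5.19 in Cranial, so it was near background in Oral. Hoxa2 read 3.22, 3.17 and 3.31 in Ventral and 3.11, 3.56 and 3.37 in Dorsal, which leaves the Cranial arrays the only ones above background.

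In Oral minus Dorsal 4 of the 17 were higher and 1 lower (16.8% of all genes called, median -0.01 against -0.02 over all genes), and the largest were Pax3 at 3.68 ± 0.12, Meox2 at 3.61 ± 0.30 and Osr1, a zinc finger factor of intermediate mesoderm, at 1.74 ± 0.50. In Cranial minus Dorsal 6 were higher (18.7%, median 0.08 against -0.06), among them Meox2 (2.05 ± 0.30), Pax3 (1.76 ± 0.12) and Osr1 (1.72 ± 0.50). In EPF minus Dorsal 2 were higher, Meox2 (4.58 ± 0.39) and Osr1 (2.95 ± 0.41), with 16.8% of all genes called (median 0.16 against 0.01). Meox2 read 9.43, 10.14 and 9.56 in EPF, 8.59, 8.93 and 8.69 in Oral and 7.08, 7.12 and 7.31 in Cranial, against 3.74, 4.26 and 4.40 in Ventral and 4.33, 5.75 and 5.31 in Dorsal. All 3 Ventral arrays and Dorsal array 1 were near background for Meox2, so the size of a difference from them is uncertain.

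In Oral minus Ventral 3 of the 17 were higher and 1 lower (14.6% of all genes called, median -0.05 against -0.02), among them Meox2 (4.60 ± 0.30, against near-background Ventral values), Pax3 (3.55 ± 0.12) and Pax1 (0.86 ± 0.14). In Cranial minus Ventral 4 were higher and 1 lower (17.9%, median -0.15 against -0.06). There Meox2 differed by 3.04 ± 0.30 and Hoxa2 by 1.79 ± 0.15, both against near-background Ventral values, and Pax3 by 1.63 ± 0.12.

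**Figure D4:**
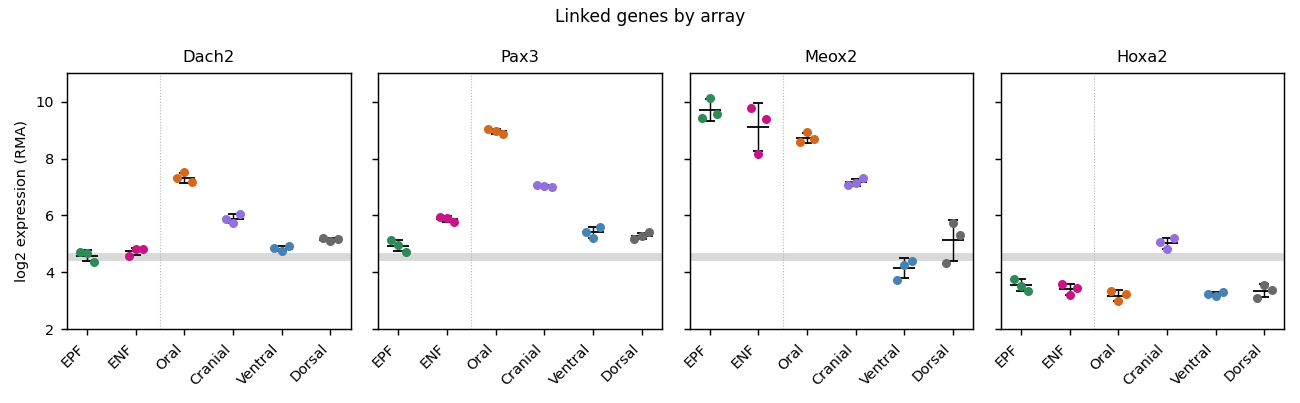
Log2 expression of Dach2, Pax3, Meox2 and Hoxa2 on every array, with group mean and SD (n = 3) and the lower-quartile band in grey. Dach2 and Pax3 are highest in Oral and next in Cranial, Meox2 is also high in EPF and ENF, and Hoxa2 is above the band only in Cranial.

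Of the 15 cofactors and corepressors measured, 0 were called in Oral minus Cranial (1 at an unadjusted p under 0.05, limma), where 1.14% of all genes were called (median 0.10 against 0.04). Against Dorsal, Oral had 5 higher and 1 lower, with 16.8% of all genes called (median 0.47 against -0.02). Crebbp, the CBP acetyltransferase, was lower by -1.09 ± 0.12, and Gnai2, a G protein subunit that can bind Eya2, and Ski, the corepressor related to Dach, were higher by 1.01 ± 0.23 and 0.77 ± 0.19. Against Ventral, Oral had 4 higher and 1 lower (14.6% of all genes, median 0.48 against -0.02), with the corepressor Tle4 higher by 1.34 ± 0.41 and Crebbp lower by -1.01 ± 0.12. Cranial had 4 higher and 1 lower against Dorsal, with Gnai2 at 0.91, Crebbp at -0.85 and Ski at 0.78 (18.7% of all genes, median 0.15 against -0.06). It had 3 higher and 1 lower against Ventral, with Crebbp at -0.77, Gnai2 at 0.76 and Ep300, another acetyltransferase, at 0.70 (17.9%, median 0.41 against -0.06). EPF minus Dorsal had 2 higher and 2 lower (16.8%, median 0.35 against 0.01).

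Genes reported as targets of Eya proteins and their homeobox partners, 22 measured, did not share a direction. In Oral minus Cranial 2 were lower and 0 higher (1.14% of all genes, median 0.08 against 0.04): Wnt4, a Wnt ligand, at -1.90 ± 0.39 and Vegfc, a lymphatic growth factor, at -1.01 ± 0.18. In Oral minus Dorsal 5 were higher and 2 lower (16.8%, median 0.12 against -0.02), with the growth regulator Myc at 2.40 ± 0.28, Zeb1, a repressor of epithelial genes, at 1.43 ± 0.12 and Vegfc at -1.41 ± 0.18. In Oral minus Ventral 6 were higher and 3 lower (14.6%, median -0.10 against -0.02), with Myc at 2.45, Zeb1 at 1.64 and Wnt4 at -1.59. In Cranial minus Dorsal 4 were higher and 3 lower (18.7%, median -0.07 against -0.06), with Myc at 2.78, Igfbp5, an IGF binding protein, at 1.76 and the growth factor Fgf10 at -1.29. In Cranial minus Ventral 5 were higher and 2 lower (17.9%, median -0.16 against -0.06), with Myc at 2.82, the cyclin Ccnd1 at -1.49 and Zeb1 at 1.41. Myc read 8.96, 9.10 and 8.87 in Oral, 9.32, 9.25 and 9.48 in Cranial, 6.73, 6.52 and 6.33 in Ventral and 7.32, 6.53 and 5.89 in Dorsal. No Oral or Cranial array overlapped a Ventral or Dorsal one. In EPF and ENF, Myc read higher still, at 10.07 to 10.64 and 9.92 to 10.79. EPF minus Dorsal had 5 higher and 5 lower (16.8%, median 0.06 against 0.01), with Myc at 3.86, Wnt4 at -3.30 and Gdnf, a neurotrophic factor near background on EPF arrays 1 and 2, at -3.28. No gene of these 3 lists was called by limma in Ventral minus Dorsal or EPF minus ENF. In Ventral minus Dorsal an unadjusted p under 0.05 was given to 1 of the 17 upstream factors, 0 of the 15 cofactors and 3 of the 22 target genes, against 8.55% of all genes. In EPF minus ENF it was given to 7 of the 17, 1 of the 15 and 6 of the 22, against 10.8% of all genes.

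Across the 12 site arrays, the genes with the pattern most like each member, by Pearson correlation over the 9096 genes above the median level, were named as follows. The points fall in 4 groups of 3, and these values are a description of the 12 arrays. For Six2 they were Flnc, an actin crosslinker (0.957, Spearman 0.80), Unc5c, a netrin receptor (0.950, Spearman 0.71), and Fsd1 (0.948, Spearman 0.69). For Eya1 they were Pax3 (0.983), Tnn, a tenascin (0.981), and Pdgfa, a platelet-derived growth factor (0.973). For Six4 they were Map3k20, a stress kinase (0.940), Hnrnpl, a splicing factor (0.935), and Rgs17, a regulator of G protein signalling (0.933). For Six5 they were Calcoco1 (0.984), the Mediator subunit Med6 (0.974) and Serpinb9 (0.971), and for Eya4 they were the Fanconi anaemia protein Fance (0.977), Tmem192 (0.970) and the ubiquitin ligase Rnf111 (0.969). Among the 8 members and Dach2 the same measure over every pair ran from -0.67 for Six5 and Eya2 to 0.98 for Eya1 and Dach2. Six2 and Eya1 gave 0.91 (Spearman 0.63), Six4 and Eya1 0.94 (Spearman 0.92), and Eya1 and Eya3 -0.36.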

How the data were processed

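Total RNA of 18 sorted samples was hybridized to Affymetrix arrays. The authors deposited log2 expression values, made in R with RMA and quantile normalization per the labels' design text and the submitters' processing notes. Versions are not given there, nor is whether all arrays went through 1 run. Of 45101 probe sets, 64 controls were set aside and 34945 carried 1 gene symbol in the platform annotation; 18193 genes were tested, each by its probe set of highest mean level over the 18 arrays. Groups and replicate numbers came from sample titles. Differences were tested with limma 3.58.1 in R 4.3.3 (lmFit, eBayes, Benjamini-Hochberg over all genes). The 12 site arrays were fitted together; EPF minus ENF and EPF minus Dorsal each used their own 6 arrays. The fit was tested on simulated data. RefSeq promoter windows (GRCm38.p6) were searched for 3 motifs on both strands.

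All 8 members are described, with at most the 3 largest called genes of each linked list per comparison, and the 3 most correlated genes of each member called in 2 or more site pairs. Members and lists were chosen with earlier results of these data known. Alternatives were quantile normalization, a filter on dim genes, other sets of arrays, another variance prior, the replicate number as a block, another probe set rule, all probe sets and leaving out each array.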

Additional observations from a re-analysis of the deposited data

How the results depend on the processing

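Six2 and Eya1 kept every call made here in the 15 settings tried for each pair of sites, and the F test over the 4 sites called 5 members under every setting. Where all genes were counted, that F test called 2513 to 7012 of them, against 3836 with the settings used here. With only the 2 groups in the fit, which leaves fewer arrays to estimate the spread, the members called were 4 in Oral minus Cranial (against 2, adding Six4, adjusted p = 0.0107, and Eya2, 0.0410), 3 in Oral minus Dorsal (against 5) and 2 in Cranial minus Dorsal (against 5). Of all genes, that fit called 1795 in Oral minus Cranial, against 207 with all site arrays in the fit. It called 1065 in Oral minus Dorsal, against 3065, and 1242 in Cranial minus Dorsal, against 3393. The Six4 and Eya2 calls were thus gained where more of all genes were called. Leaving out 1 array gave 2 to 4 calls in Cranial minus Dorsal: 2 without Cranial array 1, 3 without Cranial array 2, 2 without Cranial array 3 and 3 without Dorsal array 2. There, Six4, Eya2 and Eya4 were the members that lost the call. Of all genes, 1645 were called there without Cranial array 1, 2006 without Cranial array 2 and 1768 without Cranial array 3. Without Dorsal array 2 the number was 2970, and with every site array 3393. Without Ventral array 3 the Eya4 call in Cranial minus Ventral was lost (1.17, adjusted p = 0.0501), and without Ventral array 1 Six4 gained it there (1.17, adjusted p = 0.0387).

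EPF minus Dorsal, with 1 call, gave 2 with all 18 arrays in 1 fit (adding Eya2), 2 with the probe set of largest variance (adding Eya3) and 0 to 1 with 1 array left out. Of all genes, 5678 were called with all 18 arrays and 3366 with the probe set of largest variance, against 3055. With 1 array left out, 1474 to 4061 were called. Eya3 in Oral minus Dorsal, not called at -0.18, was 0.18 with the probe set of largest variance, which is another probe set. Over the members and comparisons called in at least 1 setting, 419 values kept their direction and side of the threshold, 31 lost it, 11 gained it and 1 turned. The cause of these changes was not tested.

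With the replicate number as a block, the members called were 2 in Oral minus Cranial, 5 in Oral minus Dorsal, 5 in Oral minus Ventral, 4 in Cranial minus Dorsal, 3 in Cranial minus Ventral and 0 in EPF minus Dorsal. The number called over all genes was lower with the block in each of these pairs. It was 170 in Oral minus Cranial (against 207), 2760 in Oral minus Dorsal (3065) and 2355 in Oral minus Ventral (2665). It was 2931 in Cranial minus Dorsal (3393), 2748 in Cranial minus Ventral (3251) and 2351 in EPF minus Dorsal (3055). Same-numbered arrays deviated together with correlations of -0.38 to 0.30 and the labels do not pair them, so the numbers were not taken to pair the samples. Groups of 3 arrays, and genes near background such as Eya2 and Dach1, limit what can be seen.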
